A study of Mus musculus with 8 samples.

Results

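Of the 17097 genes measured, 10 genes of the stomach and intestine were followed across mouse fibroblasts, induced hepatocyte-like lines and primary hepatocytes. They were Gkn1, Gkn2, Tff1, Tff2, Tff3, Clca1, Spink1, Cdx1, Cdx2 and Cdh17, each read through the probe set with 1 gene symbol and the highest mean over the 8 arrays. The list was drawn up with earlier results of these arrays in view and was chosen by the log2 signals of line 4a3CK beside those of the other lines. Its values in the lines are therefore given as a description with no test. The name fits part of the list only, because Tff2, Cdx1 and Cdh17 were not raised in 4a3CK.

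RNA was hybridised to 8 expression arrays of 3 kinds of cell, and all values are log2 signals per probe set. Mouse embryonic fibroblasts (MEFs) of C57/B6 embryos at embryonic day 13.5 gave 2 arrays, MEF 1 and MEF 2. Lines of induced hepatocyte-like cells (iHeps), made from fibroblasts with retroviruses and read at passage 10, gave 1 array each, so that a line is 1 culture with no replicate. Line 4a3 carried Hnf4a and Foxa3, line 4a3CK carried Hnf4a, Foxa3, c-Myc and Klf4, and line 4a1CK had Foxa1 in place of Foxa3 beside Hnf4a, c-Myc and Klf4. Epithelial colonies were seen within 5 days for 4a3CK and 4a1CK and within 2 weeks for 4a3, per the labels, a difference that goes with the comparison of 4a3CK with 4a3. Hepatocytes in primary culture (PH) from male C57/B6 mice of 8 to 10 weeks, freed by collagenase perfusion and cultured in the hepatocyte medium of the lines, gave PH 1, PH 2 and PH 3, the last being the array whose label has no number. The number of arrays limits the precision, and a p-value here covers the spread between arrays, which may be technical, since the labels do not say that arrays of a group came from separate cultures or animals.

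The stomach lining is covered by surface mucous cells that secrete mucins together with gastrokines and trefoil factor 1, and the intestine by absorptive enterocytes and mucus-filled goblet cells. Trefoil factors are small, cysteine-rich peptides packed with mucin. Cdx1 and Cdx2 are the homeobox factors that set intestinal identity in the gut epithelium, and normal stomach and liver lack them, although all these organs arise from the endoderm, the germ layer of the gut tube.

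The arrays did not share a common level. The median over all probe sets lay from 4.23 to 4.45 on 7 arrays and at 5.06 on PH 3, and 93.0% of genes read higher on PH 3 than on PH 1. PH 1 and PH 2 were nearly alike, their differences over genes having an SD of 0.159, against 0.570 for the MEF pair. The labelled cell types were read through marker lists. The mean of 12 hepatocyte markers was 8.65 to 9.38 on the PH arrays and 4.36 and 4.38 on the MEF arrays. The mean of 10 fibroblast markers was 10.54 and 9.36 on the MEF arrays and 5.20 to 5.42 on the PH arrays. Not every marker differed. By limma (adjusted p below 0.05, log2 difference of at least 1), 8 of the 12 were higher and 8 of the 10 lower in PH. Cyp3a11, among the rest, read 4.83, 5.03 and 8.63 in PH 1, 2 and 3. Foxa3, delivered to 4a3 and 4a3CK, read 3.94 and 3.99 there and 3.92 in 4a1CK, and Foxa1, delivered to 4a1CK, read 4.01 there. Both were near the MEF arrays, which lay from 3.62 to 3.71 for these genes. Hnf4a, delivered to all 3 lines, was above the MEF arrays (5.65 and 5.62) in 4a3CK (9.59) but near them in 4a3 (6.04) and 4a1CK (5.50). Klf4 was highest in 4a3 (10.60), whose label does not list it, and read 9.43 in 4a3CK and 9.56 in 4a1CK, beside 8.56 and 9.12 in the MEF arrays. Myc read 9.38 in 4a3CK, 8.48 in 4a3, 8.48 in 4a1CK, and 6.69 and 8.71 in the MEF arrays. These levels do not follow the labelled factor sets. Hnf4a has 4 probe sets and Klf4 has 2, and only the one with the highest mean is given for each. Whether the probe sets lie in the delivered part of the genes is not given in the sources used here. The names 4a3, 4a3CK and 4a1CK therefore stand throughout for the arrays labelled so.

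Line 4a3CK carried very high signals of 5 of the 10 genes that neither other line shared. Clca1, Gkn2, Gkn1, Tff1 and Cdx2 exceeded both 4a3 and 4a1CK by at least 2 on the log2 scale, which is 4-fold, a step that 0.959% of all genes passed, and 0 of the 10 were lower by that step than both, as 0.474% of all genes were. Tff3 and Spink1 were high in 4a3CK and in 4a3 but not in 4a1CK. Tff2 and Cdx1 stayed low everywhere, and Cdh17 was highest in 2 of the 3 PH arrays. Because the list was chosen for 4a3CK, these counts describe it and support nothing further, and in bulk RNA a change in the number of cells of one type and a change in RNA per cell cannot be told apart.

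**Figure D1:**
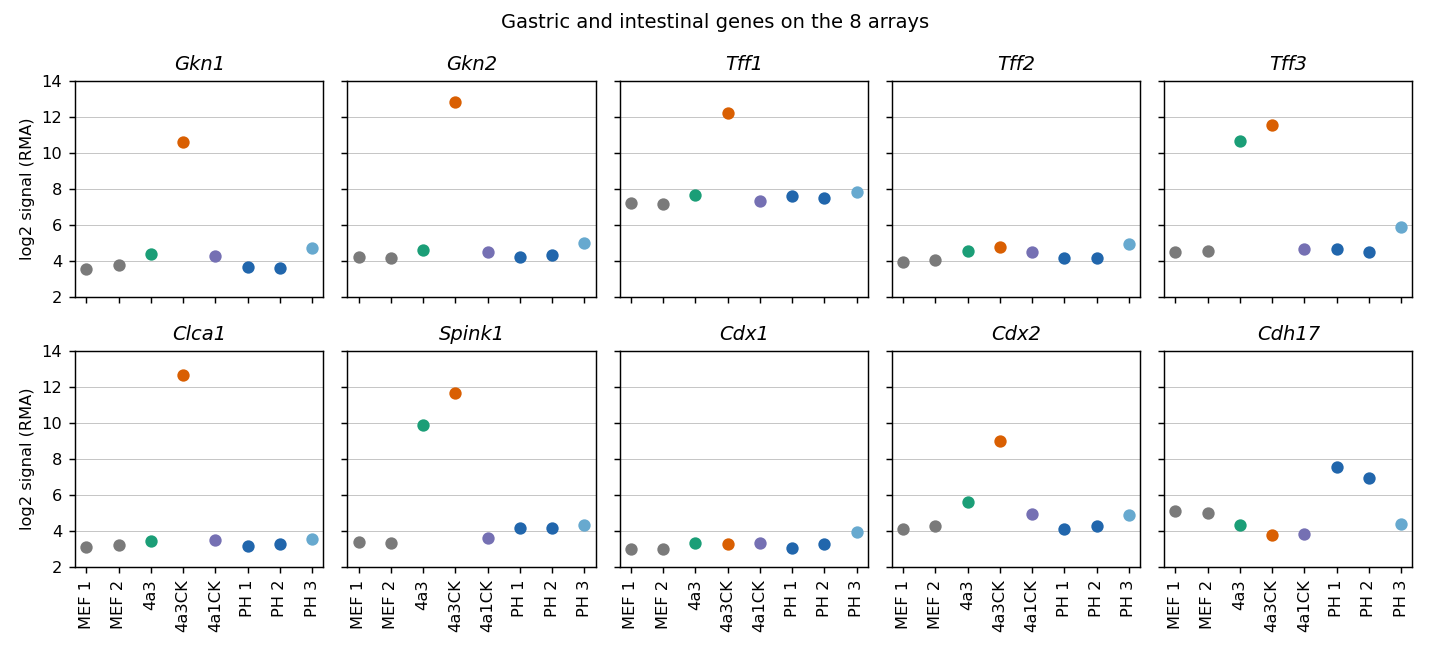
Log2 signal of each gene (vertical axis) on each of the 8 arrays (horizontal axis), 1 point per array, with no error bars because each point is 1 array. The 4a3CK point of Clca1, Gkn2, Gkn1, Tff1 and Cdx2 stands above the other 7, Tff3 and Spink1 are high in both 4a3 and 4a3CK, and Cdh17 is high in PH 1 (7.55) and PH 2 (6.94).

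The gastrokines are small secreted proteins of gastric surface mucous cells. Gkn1 read 10.58 in 4a3CK, 4.37 in 4a3, 4.27 in 4a1CK, 3.55 and 3.76 in the MEF arrays, and 3.66, 3.60 and 4.74 in PH 1, 2 and 3. Gkn2 read 12.85 in 4a3CK, 4.63 in 4a3, 4.52 in 4a1CK, 4.23 and 4.16 in the MEF arrays, and 4.24, 4.33 and 5.00 in the PH arrays. For both genes 4a3CK was the 1 high array, and PH 3 was the highest of the rest, as it was for most of the genes here. The log2 difference of 4a3CK from PH 3 was 5.84 for Gkn1 and 7.86 for Gkn2. The PH 3 readings lay under the median of that array, so these sizes depend on low readings and are not exact folds of the transcript. By the margin of 4a3CK over the highest of the other 7 arrays, Gkn2 ranked 2 and Gkn1 ranked 4 among all 17097 genes. Each gastrokine had 1 probe set, and both are of kinds that can bind more than 1 transcript (_x_at for Gkn1, _a_at for Gkn2).

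Gkn1 and Gkn2 are neighbours on chromosome 6, and the sequences before their starts are shown because the pair was high together in the line in which Cdx2 was also high. Of the 10 genes, 3 had a promoter in the RefSeq table of build GRCm38.p6. The 250 bases upstream of each start are given 5′ to 3′ on the gene's own strand, and capitals mark TTTAT or TTTAC, the core letters bound by Cdx factors, on either strand, and the TATA box TATAAA.
Gkn1, chr6:87350916-87351165, minus strand: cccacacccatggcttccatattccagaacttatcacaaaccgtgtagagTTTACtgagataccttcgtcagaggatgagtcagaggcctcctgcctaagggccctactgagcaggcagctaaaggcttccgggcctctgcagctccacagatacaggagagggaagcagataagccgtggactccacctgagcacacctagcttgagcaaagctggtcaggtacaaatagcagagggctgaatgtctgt
Gkn2, chr6:87373115-87373364, plus strand: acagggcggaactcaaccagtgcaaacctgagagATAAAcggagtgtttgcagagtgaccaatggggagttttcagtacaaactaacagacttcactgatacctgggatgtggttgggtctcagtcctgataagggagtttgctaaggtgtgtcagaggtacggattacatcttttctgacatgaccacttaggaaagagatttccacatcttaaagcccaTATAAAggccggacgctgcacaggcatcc
Cdx2, chr5:147307250-147307499, minus strand: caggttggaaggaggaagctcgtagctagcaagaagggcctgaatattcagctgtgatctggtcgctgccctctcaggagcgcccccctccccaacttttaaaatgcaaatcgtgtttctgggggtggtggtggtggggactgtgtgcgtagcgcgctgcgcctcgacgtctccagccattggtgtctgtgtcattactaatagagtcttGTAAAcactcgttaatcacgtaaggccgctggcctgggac
In this window Gkn1 held TTTAC 1 time, from 200 bases upstream of the start, and Gkn2 held TTTAT 2 times, from 216 and 28 bases upstream on the opposite strand. The second of these lies inside the TATA box of Gkn2, which begins 29 bases upstream. Cdx2 held TTTAC 1 time on the opposite strand, from 40 bases upstream, and those letters overlap a forkhead core TGTTTNC, the kind of sequence that Foxa factors bind. A forkhead core also stood 206 bases upstream of Gkn2. Such letters are common. TTTAT was found on either strand in 37.3% of 32851 such windows, TTTAC in 28.3%, TGTTTNC in 17.8% and TATAAA in 12.4%. The Klf core CACCC occurred 1 time each in Gkn1 and Cdx2 and in 52.0% of all windows, and neither the Hnf4 core CAAAGNCCA (1.70% of windows) nor the Myc E-box CACGTG (6.02%) was found in the 3 windows. A match describes letters and is not a bound site.

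The trefoil genes Tff3, Tff2 and Tff1 lie next to each other on chromosome 17 and had 3 different patterns. Tff1, a peptide of gastric surface cells, read 12.22 in 4a3CK, 7.64 in 4a3, 7.33 in 4a1CK, 7.19 in both MEF arrays, and 7.58, 7.52 and 7.85 in the PH arrays. The other 7 arrays lay within 0.66 of each other, so only 4a3CK stood apart for Tff1, 20.7-fold over the next array. Those 7 readings were themselves above the medians of the arrays (4.23 to 5.06). Whether they were background of the 1 probe set or transcript was not tested. Tff3, the trefoil peptide of goblet cells, read 11.54 in 4a3CK and 10.64 in 4a3, but 4.66 in 4a1CK, 4.49 and 4.54 in the MEF arrays, and 4.64, 4.51 and 5.89 in the PH arrays. Lines 4a3 and 4a3CK were thus both high for Tff3, with 4a3CK only 1.86-fold over 4a3, and 4a1CK lay at the level of fibroblasts. Tff2, a peptide of gastric mucous neck and gland cells, read 4.78 in 4a3CK, 4.53 in 4a3, 4.52 in 4a1CK, 3.93 and 4.05 in the MEF arrays, and 4.16, 4.14 and 4.92 in the PH arrays. Its whole range over the 8 arrays was 0.99, and its highest array was PH 3, the array with the raised level.

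Clca1, a secreted protein of goblet cell mucus, stood farther apart in 4a3CK than any other gene on the arrays. It read 12.70 in 4a3CK, 3.45 in 4a3, 3.50 in 4a1CK, 3.12 and 3.23 in the MEF arrays, and 3.15, 3.26 and 3.57 in the PH arrays. The log2 difference was 9.25 from 4a3, 9.20 from 4a1CK and 9.14 from the next array, PH 3. The PH 3 reading lay under percentile 5 of that array (3.63), so the size of the difference depends on a reading at the low end of the scale. A second probe set of Clca1 read 9.03 in 4a3CK and from 3.06 to 3.78 on the other arrays, so both probe sets put the gene in the same line.

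Spink1, the pancreatic secretory trypsin inhibitor that is also made in gut epithelium, had the same shape as Tff3. It read 11.68 in 4a3CK and 9.87 in 4a3, against 3.61 in 4a1CK, 3.38 and 3.33 in the MEF arrays, and 4.19, 4.15 and 4.34 in the PH arrays. The line 4a3CK was 3.51-fold over 4a3, and the log2 difference from 4a1CK was 8.07, taken from a low reading in 4a1CK. Tff3 and Spink1 were the 2 of 10 genes that were at least 2 higher on the log2 scale in 4a3 than in 4a1CK, a step passed by 0.684% of all genes, while 0 were lower, as 0.638% of all genes were. Both 4a3 and 4a3CK exceeded 4a1CK by it in 0.380% of all genes. Tff3 and Spink1 ranked 8 and 5 among all genes in the difference of 4a3 from 4a1CK. They also exceeded the MEF mean by that step in 4a3, where 2.34% of all genes did, and 7 of the 10 genes did so in 4a3CK, where 2.25% of all genes did. In 4a1CK 0 of the 10 genes exceeded the MEF mean by that step, and 2.28% of all genes did, so that count is near the share.

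Of the pair of intestinal homeobox factors, Cdx2 was high in 4a3CK and Cdx1 was low throughout. Cdx2 read 9.01 in 4a3CK, 5.61 in 4a3, 4.97 in 4a1CK, 4.13 and 4.26 in the MEF arrays, and 4.11, 4.29 and 4.89 in the PH arrays. It was 10.5-fold over the next array, which was 4a3. The other probe set of Cdx2 showed far less, at 4.87 in 4a3CK and 3.72 to 4.18 on the other arrays, a margin of 0.68 in place of 3.40. Cdx1 read 3.27 in 4a3CK, 3.31 in 4a3, 3.36 in 4a1CK, 3.03 and 2.99 in the MEF arrays, and 3.07, 3.27 and 3.95 in the PH arrays. All values of Cdx1 were at the low end of the scale, and no value passed 4.09, the level under which 40% of all values lie.

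Cdh17, the liver-intestine cadherin that joins epithelial cells of the gut, ran the other way. It read 3.79 in 4a3CK, 4.33 in 4a3, 3.86 in 4a1CK, 5.09 and 4.99 in the MEF arrays, and 7.55, 6.94 and 4.41 in the PH arrays. The 3 lines were the lowest arrays, and PH 3 lay between 4a3 and the MEF arrays. The cadherin therefore did not accompany Cdx2 in 4a3CK, and its level in hepatocytes rested on PH 1 and PH 2.

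**Figure D2:**
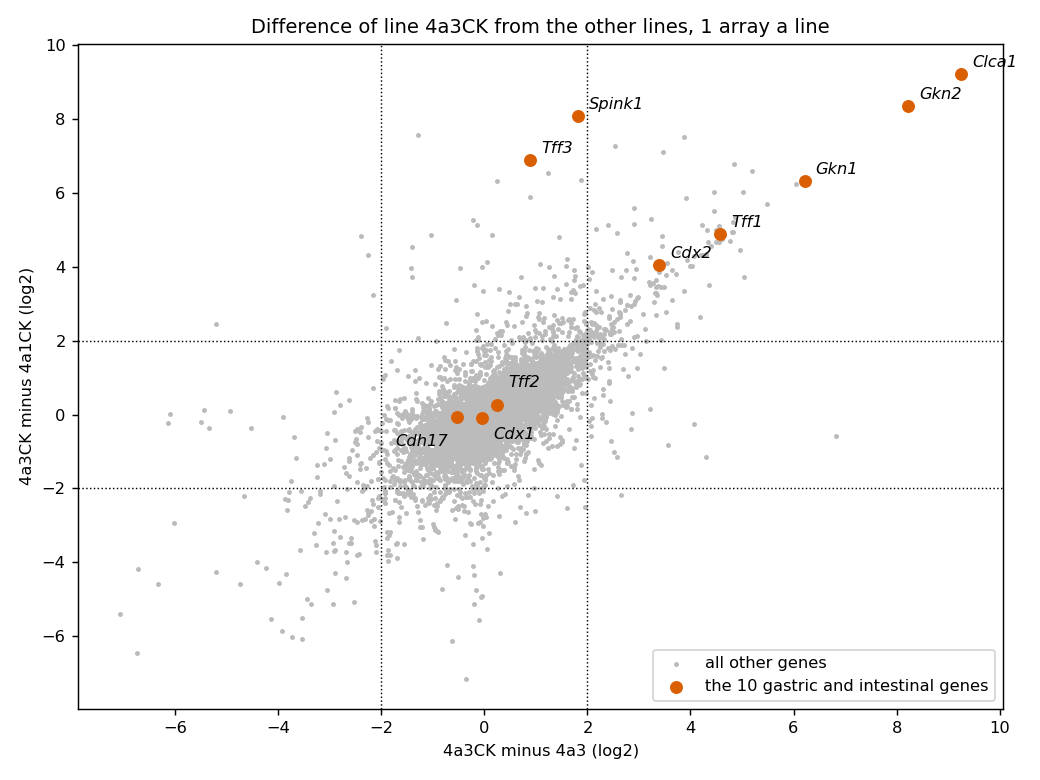
Difference of 4a3CK from 4a3 (horizontal, log2) and from 4a1CK (vertical, log2) for all 17097 genes, each point 1 gene and each difference taken between 2 single arrays. Dotted lines mark differences of 2 in either direction. Clca1, Gkn2, Gkn1, Tff1 and Cdx2 lie along the diagonal, Tff3 and Spink1 lie above the upper dotted line but left of the right one, and Tff2, Cdx1 and Cdh17 lie in the central cloud.

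Set against 4a3, 5 of the 10 genes were higher by at least 2 in 4a3CK and 0 were lower, where 1.36% of all genes were higher and 0.871% lower, and the median difference was 2.60 against -0.02 over all genes. Set against 4a1CK, 7 were higher and 0 lower, where 1.80% of all genes were higher and 1.37% lower, and the median was 5.60 against -0.01. These comparisons share the 4a3CK array. Against the highest of the other 7 arrays, 5 of 10 were at least 2 higher in 4a3CK, as were 0.363% of all genes. In all, 9 of the 10 genes had a value over 4.09 on some array, as did 15380 of all 17097 genes, so the count is near that share. Outside 4a3CK 8 of the 10 had one. No share of all genes was computed for that count, so nothing about the 10 genes can be read from it.

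The comparison of PH with MEF used no line, neither for its means nor for its spread, and asked whether hepatocytes differ from fibroblasts in these genes. By limma, with each line as its own group, 0 of the 10 genes differed by 1 or more on the log2 scale with an adjusted p below 0.05, where 6.42% of all genes passed (622 higher and 476 lower in PH, or 594 and 770 after subtracting array medians). At an unadjusted p under 0.05 there was 1, Spink1, which was higher in PH by 0.87 ± 0.30 (SE, n = 3 and 2; limma adjusted p = 0.168), with 3 of 3 PH arrays above both MEF arrays. Without PH 3 Spink1 differed by 0.82 (limma adjusted p = 0.0138), under the step of 1, and over all alternatives its adjusted p ranged from 0.0138 to 0.799. Cdh17 differed by 1.26 ± 0.78 (limma adjusted p = 0.598). Without PH 3 Cdh17 was higher in PH by 2.21 and passed (limma adjusted p = 0.0177), and over all alternatives its adjusted p ranged from 0.0177 to 0.963. The other 8 genes differed by 0.15 to 0.49, against a median of 0.25 over all genes that goes with the raised level of PH 3. All 10 differences were above 0 as deposited, and 8 were after subtracting array medians. The share of all genes above 0 was not computed, so these counts show nothing particular to the 10 genes. After that subtraction the median was 0.15 for the 10 genes and -0.03 for all genes, and the lowest limma adjusted p of the 10 was 0.239. In 5 genes every PH array lay above both MEF arrays, as in 30.1% of all genes.

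The genes next to the high ones on their chromosomes were read in the order of the RefSeq table. Beside Gkn1 and Gkn2, the third gastrokine, Gkn3, read 5.39 in 4a3CK, 5.57 in 4a3 and 5.50 in 4a1CK, so the lines did not differ by more than 0.18. On the other side of Gkn1, Antxr1, an anthrax toxin receptor of the cell surface, read 8.64 in 4a3CK, 6.78 in 4a3, 5.16 in 4a1CK, 10.35 and 9.58 in the MEF arrays and 4.02 to 4.81 in the PH arrays. It was thus higher in 4a3CK than in the other lines but highest in fibroblasts. Tmprss3, the gene after Tff1, read 3.69 in 4a3CK and 3.53 to 3.96 elsewhere. Beside Clca1, Clca4a differed by 0.24 between 4a3CK and both other lines, and Clca2 by no more than 0.02. Next to Cdx2 lies Pdx1, a homeobox factor of the pancreas, gastric antrum and duodenum. Each has 2 probe sets, and Pdx1 was read, as Cdx2 was, through the one with the highest mean. Pdx1 read 5.97 in 4a3CK, 3.84 in 4a3, 3.86 in 4a1CK, 3.79 and 3.40 in the MEF arrays, and 3.52, 3.58 and 3.93 in the PH arrays, so both neighbouring homeobox genes had their highest array in 4a3CK. Over the wider gastrokine, Spink, Clca, Cdx and Cdh relatives on a list of 12 measured genes, 0 differed by 2 or more between 4a3CK and either other line. With 1.36% and 1.80% of all genes higher by that step than in 4a3 and 4a1CK, a count of 0 among 12 is near the share of all genes.

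**Figure D3:**
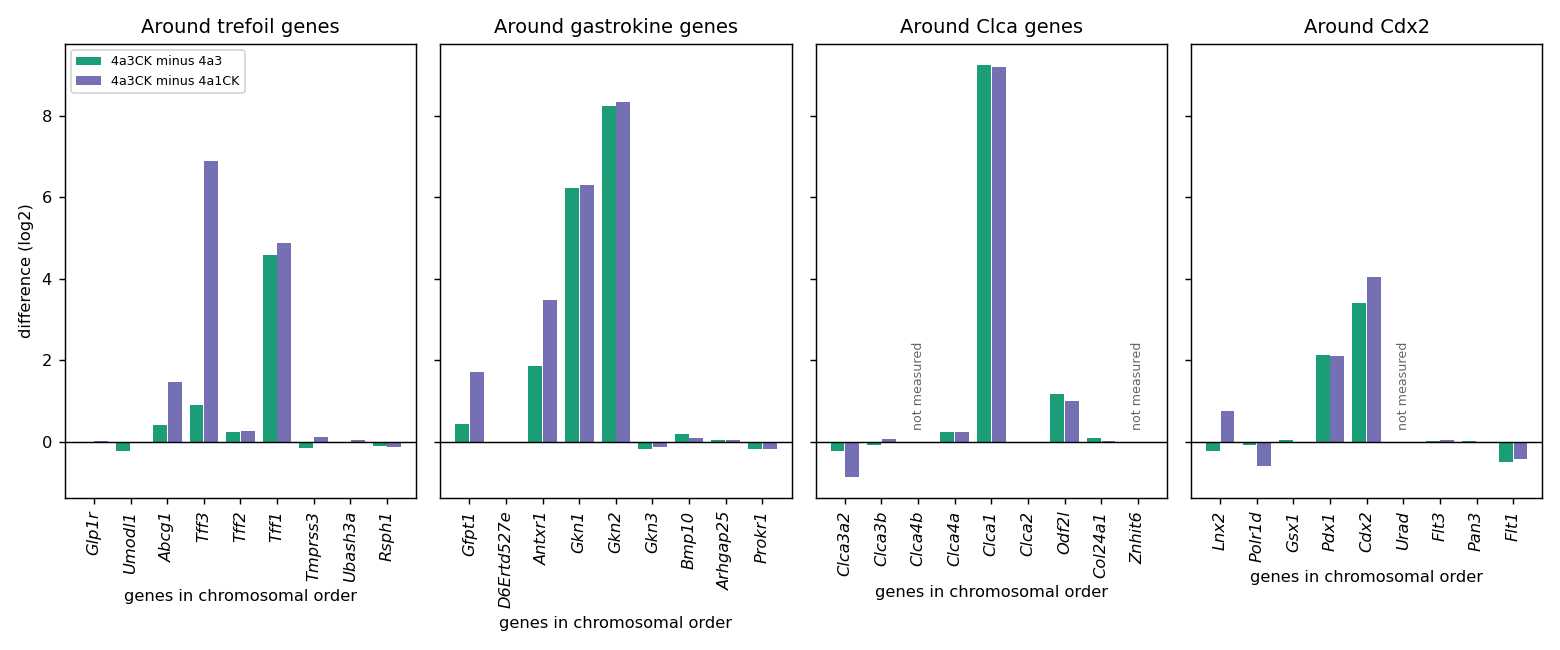
Differences of 4a3CK from 4a3 and from 4a1CK (vertical axis, log2, 1 array a line, bars from 0) for protein-coding genes in chromosomal order around the trefoil genes, the gastrokines, Clca1 and Cdx2. Bars near 0 stand beside high ones at Tff2 (0.25 and 0.26) between Tff3 and Tff1, at Gkn3 beside Gkn2, and at Clca4a and Clca2 around Clca1. Antxr1 (1.86 and 3.49) beside Gkn1 and Pdx1 (2.13 and 2.11) beside Cdx2 are raised too.

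Other genes of the gut were counted from 6 lists of stomach and intestine, of which 84 genes were measured besides the 10. The lists were written with earlier results of these arrays known, so counts from them describe the lists and support nothing further. In 4a3CK 7 of the 84 were higher by at least 2 than in both other lines and 0 were lower. Of all genes 0.959% were higher and 0.474% lower by that step. When every gene was read as the average of its probe sets, the count was 4. The 7 were Zg16, Lgals4, Sox9, Muc5ac, Anxa10, Pdx1 and Spdef. Lgals4, Muc5ac and Spdef have 1 probe set each, so averaging left them unchanged. The fall to 4 therefore lies among Zg16, Anxa10 and Pdx1, with 2 probe sets each, and Sox9, with 3. The values of these genes given here are those of the probe set with the highest mean. Zg16, a lectin of goblet cell granules, read 8.43 in 4a3CK, 3.60 in 4a3, 3.50 in 4a1CK, 3.38 and 3.39 in the MEF arrays and 3.26, 3.29 and 4.05 in the PH arrays. Lgals4, the galectin of gut epithelium, read 10.31 in 4a3CK, 5.99 in 4a3, 5.32 in 4a1CK, 3.62 and 3.81 in the MEF arrays and 3.79, 3.70 and 4.86 in the PH arrays. Both were high in 4a3CK alone, with a moderate signal of Lgals4 in the other lines.

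The gastric mucin Muc5ac read 6.82 in 4a3CK and 4.43 to 5.10 elsewhere, and Anxa10, an annexin of gastric mucosa, read 6.04 in 4a3CK and 3.39 to 4.28 elsewhere. Spdef, a factor of goblet cell maturation, read 6.44 in 4a3CK and 3.96 to 4.89 elsewhere. These 3 genes had the same single high array, at smaller margins of 1.72, 1.76 and 1.55 over the next one. Sox9, a factor of gut crypts and bile ducts, read 8.04 in 4a3CK, 5.39 in 4a3 and 4.33 in 4a1CK, but 7.58 to 7.96 in the PH arrays, so it was not particular to that line. Psca, a surface antigen of stomach and prostate epithelium, followed the shape of Tff3 and Spink1, with 8.39 in 4a3CK, 7.26 in 4a3 and 4.97 in 4a1CK. Sytl2, a protein of secretory vesicle traffic, did so too, with 10.54, 9.31 and 4.01 in these lines. The shape was not particular to gut genes. The fibrinogen chain Fgb read 10.92 in 4a3CK, 12.21 in 4a3 and 3.36 in 4a1CK. Of 12 hepatocyte markers 5 were at least 2 higher in 4a3 than in 4a1CK, though Alb among them was low in 4a3CK. Of the 84 gut genes 2 were, and of all genes 0.684%.

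By list, the counts read as follows, beside 1.36% of all genes higher and 0.871% lower than in 4a3, and 1.80% higher and 1.37% lower than in 4a1CK. A count of 0 in a list of this size is near those shares and shows nothing particular to the list. Of 12 measured genes of gastric chief, parietal and endocrine cells 0 differed by 2 or more between 4a3CK and either other line, and their means were 4.25 in 4a3CK, 4.31 in 4a3 and 4.24 in 4a1CK. Of 11 genes of intestinal stem and Paneth cells 0 did. Of 22 enterocyte genes 1 was higher in 4a3CK than in both other lines, Lgals4, and the median difference was -0.13 from 4a3 and -0.11 from 4a1CK. Of 10 goblet genes 2 were higher than in both lines, of 14 gastric surface and mucous neck genes 2, and of 15 gut transcription factors 2, beside 0.959% of all genes. Some gut genes were highest in 4a1CK instead. Vil1, the villin of brush borders, read 8.99 in 4a1CK, 6.02 in 4a3CK and 6.27 in 4a3. Tmigd1 read 8.62 in 4a1CK, 5.41 in 4a3CK and 5.32 in 4a3, and the transmembrane mucin Muc13 read 10.22, 5.89 and 6.09. These 3 epithelial genes thus had their highest signals in line 4a1CK.

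Markers of other cell types that share some of these genes were read beside them. Of 10 pancreatic acinar genes 1, the amylase Amy2a5, was higher by 2 or more in 4a3CK than in 4a1CK, at 5.62 against 3.13 and 4.09 in 4a3, and 0 were in comparison with 4a3. Prss1, a trypsinogen, read 3.65 in 4a3CK and 3.32 to 4.24 elsewhere. Of 10 airway and lung genes 0 differed by that step between 4a3CK and either line. Of all genes 1.36% were higher and 0.871% lower than in 4a3, and 1.80% higher and 1.37% lower than in 4a1CK. A count of 0 among 10 is near those shares and shows nothing particular to these lists. The list means in 4a3CK, 4a3 and 4a1CK were 4.25, 4.18 and 4.02 for pancreas and 4.15, 4.16 and 4.06 for airway and lung. For the 12 hepatocyte markers the same means were 7.09, 7.48 and 5.04. Albumin (Alb) read 3.80 in 4a3CK, 9.30 in 4a3 and 4.01 in 4a1CK, whereas the iron carrier transferrin (Trf) read 11.68, 8.21 and 4.58. Hnf4a, a regulator of both liver and gut epithelium, was in 4a3CK (9.59) at the level of the PH arrays (9.48 to 9.78), unlike the other lines. That reading is of 1 of its 4 probe sets, the one with the highest mean. Of 6 bile duct genes 1, Sox9, was at least 2 higher in 4a3CK than in both other lines, beside 0.959% of all genes. The mean of the 10 fibroblast markers was 4.71 in 4a3CK, 4.90 in 4a3 and 5.31 in 4a1CK. The part of Hnf4a in the values of the gut genes was not tested.

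**Figure D4:**
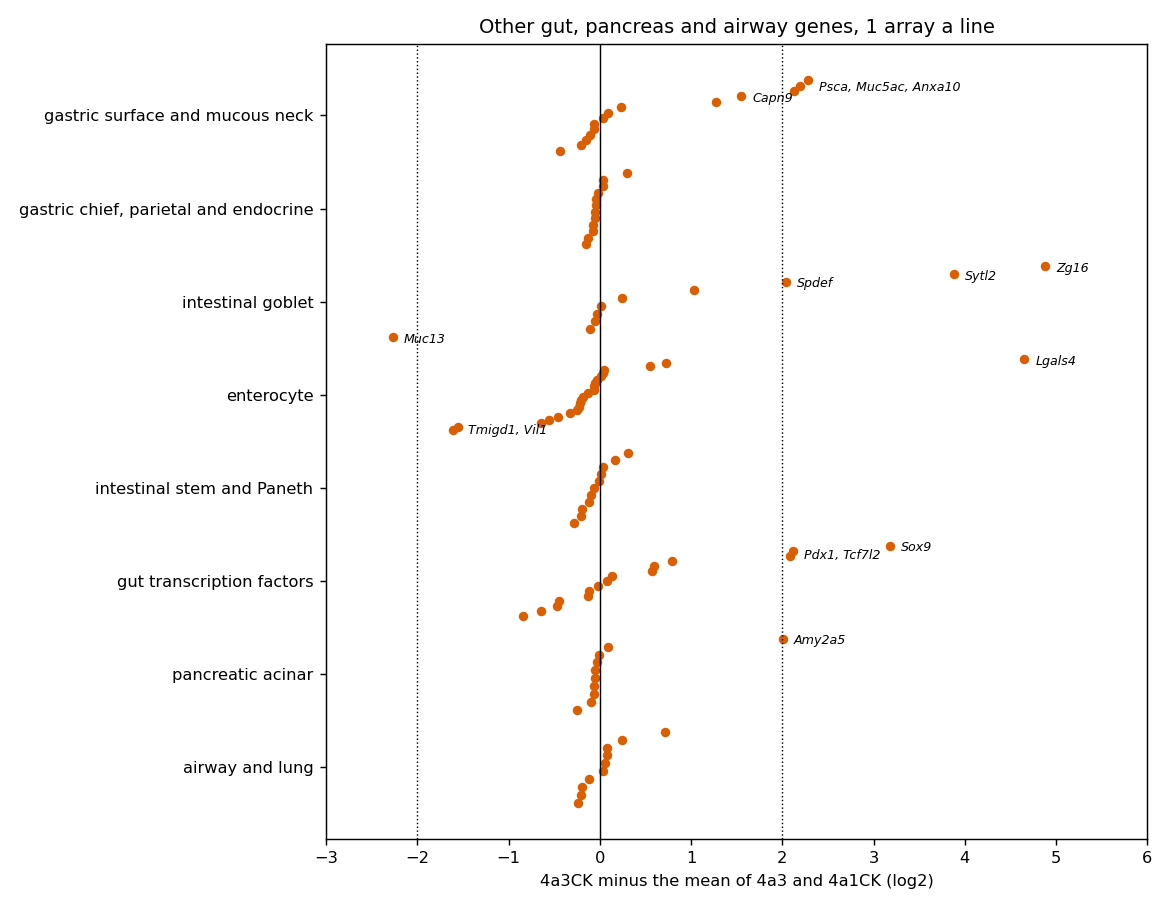
Difference of 4a3CK from the mean of 4a3 and 4a1CK (horizontal axis, log2, 1 array a line) for each gene of 6 gut lists and of pancreas and airway lists, each point 1 gene, and dotted lines at differences of 2. Most points lie near 0, and Zg16, Lgals4, Sytl2 and Sox9 lie farthest to the right.

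In PH against MEF, 7 of the 84 other gut genes rose and 1 fell by limma, where 3.64% of all genes rose and 2.78% fell. Of the 7, 6 were transcription factors that liver shares with gut or pancreas, among them Foxa2, which rose by 3.28 ± 0.31 (limma adjusted p = 0.000288) with 3 of 3 PH arrays above both MEF arrays. Foxa2 read 5.02 in 4a3CK, 5.56 in 4a3 and 6.16 in 4a1CK, far below its 7.94 to 8.28 in the PH arrays. Sox9 rose by 1.87 ± 0.31 (limma adjusted p = 0.00675). The gene that fell, Smoc2, a matrix protein also found in crypt stem cells, was named after its value was seen and differed by -4.26 ± 0.33 (limma adjusted p = 0.000112).

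Beyond the lists, the genes that stood farthest apart in 4a3CK included mucus and epithelial genes as well as genes of other tissues. Among genes other than the 10, the largest margins over the next array were those of Col10a1 (5.97), a collagen of growth plate cartilage, Gna14 (5.44), a G protein subunit, and Gcnt3 (5.01), an enzyme that branches the sugar chains of mucins. Oit1 (4.48), the acyl-CoA synthetase Acsm3 (4.45), the tetraspanin Tspan13 (4.45), Zg16 (4.38), Lgals4 (4.32), the lysophosphatidic acid receptor Lpar3 (4.22) and the adhesion protein Ceacam1 (4.18) followed. Tff1, with a margin of 4.37, ranked 11 on this scale, Cdx2 ranked 28, Spink1 76 and Tff3 199.

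The mean profile of the 10 genes, each centred on its own mean, was 3.97 in 4a3CK, 0.56 in 4a3, -0.81 in 4a1CK, -1.06 and -1.03 in the MEF arrays, and -0.64, -0.67 and -0.32 in the PH arrays. Among genes other than the 10 with a range of at least 2, the closest in Pearson correlation over the 8 arrays were Acsm3 (r = 0.993), Lpar3 (0.988), Gcnt3 (0.988), Scnn1g (0.987), Tbx20 (0.985), Wif1 (0.984), Ntm (0.982) and Chrna2 (0.982). Each such r rests largely on the 4a3CK array. Of the 10 genes, Cdx2 was closest to the mean profile (0.984), and Tff3 (0.878), Tff2 (0.591), Cdx1 (0.116) and Cdh17 (-0.428) were farthest. The profile contains each of the 10 genes, so their own r values are a description only.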

How the data were processed

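Total RNA of 8 mouse samples was read on 8 one-colour 3' expression arrays. The table holds RMA values on the log2 scale, computed by the authors in Partek per the submitters' processing notes, with no version given in the sources used here. Of 45141 probe sets, 28898 carried 1 symbol, 551 several and 15692 none, covering 17097 genes. The probe set with the highest mean was used per gene, and symbols of listed genes were matched directly or through RefSeq gene IDs.

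Members and lists were chosen with earlier results of these data known. PH was compared with MEF by limma 3.58.1 in R 4.3.3, two-sided, adjusted by Benjamini and Hochberg over all genes, with each line a group of its own (3 residual degrees of freedom), so that the lines lend no spread. The model was tested on simulated data. Lines were compared by differences of single arrays, counted at 2 or more. Beside the 10 genes, up to 4 genes per list with the largest difference of 4a3CK from the mean of the other lines were named, with the 10 genes farthest apart in 4a3CK and the 8 most alike in profile. Neighbouring genes, delivered factors, and Prss1, Clca and gastrokine relatives were named after their values were seen. Of the 10 genes, 3 matched the promoter table. Alternatives were other probe set choices, quantile normalization, array medians, a filter on dim genes, other models, thresholds and blocks, and each array left out. Averaging PH 1 with PH 2, a crossed pairing and second probe sets were chosen after seeing the data.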

Additional observations from a re-analysis of the deposited data

Results flagged for a closer look

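These values come from probe sets outside the main measurement and were above the level of the MEF arrays. The second probe set of Clca1 stood 5.25 over the highest of the other 7 arrays in 4a3CK. The second probe set of Cdx2 stood 0.68 over it. Of 15588 probe sets with no gene symbol, 21 stood at least 2 over the highest of the other arrays in 4a3CK, or 0.135%, the largest margin being 6.87.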

How the results depend on the processing

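Of the 10 genes 5 were at least 2 higher in 4a3CK, over both other lines and over all other arrays. These counts stayed 5 under quantile normalization, with array medians subtracted and with the mean of all probe sets. The mean altered only Clca1 and Cdx2, and Cdx2 then passed narrowly, at 2.08 over 4a3. The second probe set of Cdx2 alone was under the step, at 0.76 over 4a3 and 0.95 over 4a1CK. A choice against kinds such as _x_at and _a_at could not move the counts. Gkn1 and Gkn2 have 1 probe set each and kept it. Over both other lines the count was 6 at a step of 1 and 5 at a step of 3. The count over all other arrays was 5 without each MEF and PH array, where it could not fall by construction. The 7 other gut genes higher than in both lines became 4 with the mean of all probe sets and 12 at a step of 1, as more values pass a lower step. For PH against MEF, 1098 genes passed, from 652 to 1475 when an array was left out, and 618 at an adjusted p under 0.01. Of the 10 genes 0 passed, and from 0 to 1 when an array was left out, the 1 being Cdh17 without PH 3.

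With the replicate number as a block, 900 genes and 1 of the 10, Cdh17, passed, PH 3 then having a level of its own. Deviations of MEF 1 and PH 1 correlated at -0.20 over genes, so the shared numbers do not show a pairing. The crossed pairing passed 1307 genes and 1 of the 10. With either pairing the estimate of Cdh17, 2.21, equals that without PH 3. The sample numbers set MEF 2, PH 3 and the lines apart from MEF 1, PH 1 and PH 2. What that split stands for is not given by the labels. With it as a block, 1398 genes and 0 of the 10 passed, and Cdh17 differed by 0.99 (limma adjusted p = 0.395).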
